A study of Homo sapiens with 12 samples.

Results

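NID2 and 9 other genes of the basement membrane were followed through 12 RNA sequencing libraries of Huh7, a cell line established from a human liver cancer (hepatocellular carcinoma). The members, chosen by symbol, are the nidogens NID2 and NID1, the laminin chains LAMA5, LAMB1 and LAMC1, the heparan sulfate proteoglycans HSPG2 and AGRN, and the type IV collagen chains COL4A1, COL4A2 and COL4A5. Each of the 10 symbols matched 1 gene among the 59191 features of the table, and all 10 passed the minimum level for testing. Cells received disulfiram and thalidomide together (the combination), disulfiram alone, thalidomide alone, or neither drug, with the control columns named DMSO, and each of these 4 groups has 3 libraries. Disulfiram inhibits aldehyde dehydrogenases, and thalidomide binds cereblon, which selects proteins for ubiquitination. The units of the doses, treatment time, depth and strandedness were not given in the sources used here. The labelled protocol describes single cells from dissociated tissue, which is at odds with the labelled cell line and a table of 1 column per library, so the library preparation is taken as unknown.

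The basement membrane is a thin sheet of extracellular matrix under epithelia and endothelia and around muscle, fat and nerve cells. Laminins, trimers of 1 alpha, 1 beta and 1 gamma chain, form a network at the cell surface, and type IV collagen forms a second network beside it. Nidogens are short rod-shaped glycoproteins that bind the laminin gamma chain and type IV collagen, while perlecan (from HSPG2) and agrin (from AGRN) carry heparan sulfate chains that hold growth factors. The normal liver sinusoid lacks a continuous basement membrane, and hepatocellular carcinoma is known for laminin and type IV collagen laid down along its vessels.

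NID2 entered the set because it had the smallest p among 15352 genes in thalidomide against control. That comparison is therefore given here as levels and differences with no test for any member, and for NID2 so are all comparisons that share its libraries. The comparisons of disulfiram and of the combination with control use the same 3 control libraries, and that of the combination with thalidomide uses the same thalidomide libraries. For NID2, combination against disulfiram is the one comparison whose difference is free of the libraries that chose it. The SE and p of that comparison still use the spread of all 12 libraries. Nothing in the labels says that the libraries of a group are separate cultures, so p-values measure the spread between these libraries only.

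In hg38 coordinates from GENCODE 29, NID2 (ENSG00000087303) is on the minus strand of chromosome 14 from 52004803 to 52069228, and NID1 (ENSG00000116962) on the minus strand of chromosome 1 from 235975830 to 236065162. LAMA5 lies on chromosome 20 from 62307955 to 62367312, LAMB1 on chromosome 7 from 107923799 to 108003255, and LAMC1 on chromosome 1 from 183023460 to 183145592. HSPG2 and AGRN are both on chromosome 1, from 21822245 to 21937297 and from 1020123 to 1056118. COL4A1 (110148963 to 110307233) and COL4A2 (110305812 to 110513209) are neighbours read in opposite directions on chromosome 13, and COL4A5 is on chromosome X from 108439844 to 108697545. All are protein-coding genes, and each value is for the gene as a whole.

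Promoter stretches are shown for the nidogens, because both genes were lower in libraries with disulfiram, and for the shared start of COL4A1 and COL4A2, because COL4A1 was lower there and the groups overlapped in COL4A2. They are RefSeq sequences of GRCh38.p14, with capitals marking matches on either strand to GGGCGG (the GC box) and CCAAT (the CCAAT box), which may overlap. The NID2 stretch, chr14:52069060-52069309 on the minus strand, holds the 250 bases before the RefSeq start, part of which lies inside the longer gene of GENCODE. The NID1 stretch is chr1:236065091-236065340 on the minus strand, and part of it likewise lies inside the GENCODE gene. The collagen stretch, chr13:110307158-110307283, is written on the plus strand and joins the RefSeq starts of both genes, COL4A2 being read to the right and COL4A1 to the left. By GENCODE positions all of it lies inside COL4A2 and part of it inside COL4A1.
NID2 promoter: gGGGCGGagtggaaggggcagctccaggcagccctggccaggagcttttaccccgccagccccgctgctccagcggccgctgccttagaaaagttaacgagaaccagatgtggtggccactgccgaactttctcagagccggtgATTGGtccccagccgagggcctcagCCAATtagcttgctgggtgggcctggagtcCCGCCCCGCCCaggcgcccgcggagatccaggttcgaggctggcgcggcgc
NID1 promoter: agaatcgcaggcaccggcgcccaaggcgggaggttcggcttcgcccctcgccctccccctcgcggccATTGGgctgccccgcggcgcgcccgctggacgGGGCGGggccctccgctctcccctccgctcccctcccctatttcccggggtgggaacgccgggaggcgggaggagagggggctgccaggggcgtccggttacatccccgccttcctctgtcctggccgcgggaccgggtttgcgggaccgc
COL4A1-COL4A2 stretch: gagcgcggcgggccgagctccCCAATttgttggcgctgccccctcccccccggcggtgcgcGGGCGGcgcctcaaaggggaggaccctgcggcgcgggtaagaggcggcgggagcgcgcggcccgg
The NID2 stretch has 3 GC boxes and 2 CCAAT boxes, the NID1 stretch 1 of each, and the collagen stretch 1 of each. TATAAA was searched on both strands and is in none of these stretches. Over 35116 human RefSeq promoters cut to 250 bases, the nidogen length, 42.6% held a GC box, 32.0% a CCAAT box and 10.7% TATAAA. The collagen stretch has 126 bases, so these shares are not for its length. Of the 10 members 9 had an entry among the RefSeq promoters, AGRN being the other, and a match describes letters only.

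Levels are TPM (transcripts per 1e6 transcripts), a length-scaled share of all transcripts, so they can be compared between genes. Group values are means ± SD of 3 libraries, and log2 differences are on log2(TPM + 1) with SE. Between 13693 and 15038 genes per library had at least 1 TPM. All 10 hepatocyte and hepatoma markers were expressed, whereas 1 of 12 endothelial markers, PECAM1, reached 1 TPM in a group mean, and TEK, ROBO4 and EMCN were at 0 in every library. The summed endothelial markers were 4.41 to 6.44 TPM in combination, 4.33 to 8.35 in disulfiram, 1.95 to 2.63 in thalidomide and 1.03 to 1.67 in control libraries. Of 12 fibroblast and stellate markers 8 reached 1 TPM, and their sums overlapped between groups (82.9 to 112.8 TPM in combination, 72.3 to 89.5 in disulfiram, 72.7 to 107.7 in thalidomide and 88.3 to 106.3 in control libraries). The summed hepatocyte markers were 4156 to 5135 TPM in combination, 4561 to 4641 in disulfiram, 6182 to 8417 in thalidomide and 5008 to 7642 in control libraries. All 5 cholangiocyte markers were expressed, KRT19 most, at sums of 804.4 to 970.6, 983.9 to 1060, 926 to 1097 and 1003 to 1153 TPM in the same order of groups. Of 10 immune markers CD3D and CD14 reached 1 TPM, and the sums were 91.3 to 96.9 TPM in combination, 61.9 to 138 in disulfiram, 118.6 to 166.2 in thalidomide and 112.1 to 174.1 in control libraries. The part of these markers in the results was not tested. Over 15042 genes, the correlation of a library's deviation from its group mean with GC content was highest in the second combination and second disulfiram libraries, at a Spearman's rho of 0.68 and 0.62. The other treated libraries ranged from -0.60 to 0.49 (0.49 in thalidomide 1), and control libraries from -0.18 to 0.13. LAMA5, HSPG2 and AGRN have the highest GC content of the members (65.3%, 63.5% and 66.4%). Member counts without these libraries are given beside the main ones.

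Disulfiram, alone or in combination, went with lower levels of most of the set. NID2 is left out of the counts that follow, since the control libraries helped to choose it, and so is COL4A1, which was under 1 TPM in every library with disulfiram and entered the test through the libraries without it. Of the 8 remaining members, 6 fell in combination against control cells (limma, adjusted p below 0.05 over all genes), where 6.7% of all genes tested were lower and 18.4% higher. In disulfiram against control the same 6 fell, NID1, LAMA5, LAMC1, HSPG2, AGRN and COL4A5, where 4.52% of all genes were lower and 8.73% higher. The median log2 difference of the 8 was -0.59 in the combination and -0.64 in disulfiram cells, beside 0.20 and 0.09 over all genes tested. No member rose in either comparison.

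In combination against thalidomide 4 of the 8 fell (NID1, LAMA5, HSPG2 and AGRN), where 7.24% of all genes were lower and 25% higher. In combination against disulfiram 0 of all 10 members passed, and over all genes 1 of 15352 did (0.00651%; RDM1, named after its value was seen), with 2631 genes at an unadjusted p below 0.05. The summed level of the 10 members was 547.1 to 619.1 TPM in combination and 529 to 638.1 TPM in disulfiram libraries, against 820.4 to 925.5 TPM in thalidomide and 844.4 to 1020 TPM in control libraries. The disulfiram and combination sums lay below every thalidomide and control sum. Without the second combination and second disulfiram libraries, 5 of the 8 fell in combination cells (COL4A5 no longer passed, adjusted p = 0.0831) and 5 in disulfiram cells (LAMC1 no longer passed, adjusted p = 0.0982). Some single libraries mattered more. Without combination 3, only NID1 and LAMA5 of the 8 still passed in combination cells, and without control 1 only NID1, LAMA5 and AGRN. Without disulfiram 1 or 3, or control 1 or 2, only NID1, LAMA5 and COL4A5 of the 8 still passed in disulfiram cells.

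The direction of calls over all genes depended on scaling, and that of the members did not. In the combination 2823 genes were higher and 1029 lower, against 1193 and 2142 after median-of-ratios scaling and 1513 and 1888 after a GC correction. In disulfiram cells 1340 were higher and 694 lower, against 686 and 1049 after scaling and 1390 and 1622 after GC correction. For combination against thalidomide the split was 3834 higher and 1112 lower, against 1580 and 2403 and then 1696 and 1957. Median-of-ratios scaling shifted the all-gene median by -0.20 in the combination and -0.11 in disulfiram cells, and GC correction by -0.20 and -0.09. Without the second combination and second disulfiram libraries, 4503 genes were higher and 1343 lower in the combination, and 1783 higher and 759 lower in disulfiram cells. Under both scalings 7 of the 8 members counted above were called lower in each of the 2 comparisons with control, LAMB1 being the one added, and 6 of 8 in combination against thalidomide.

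**Figure D1:**
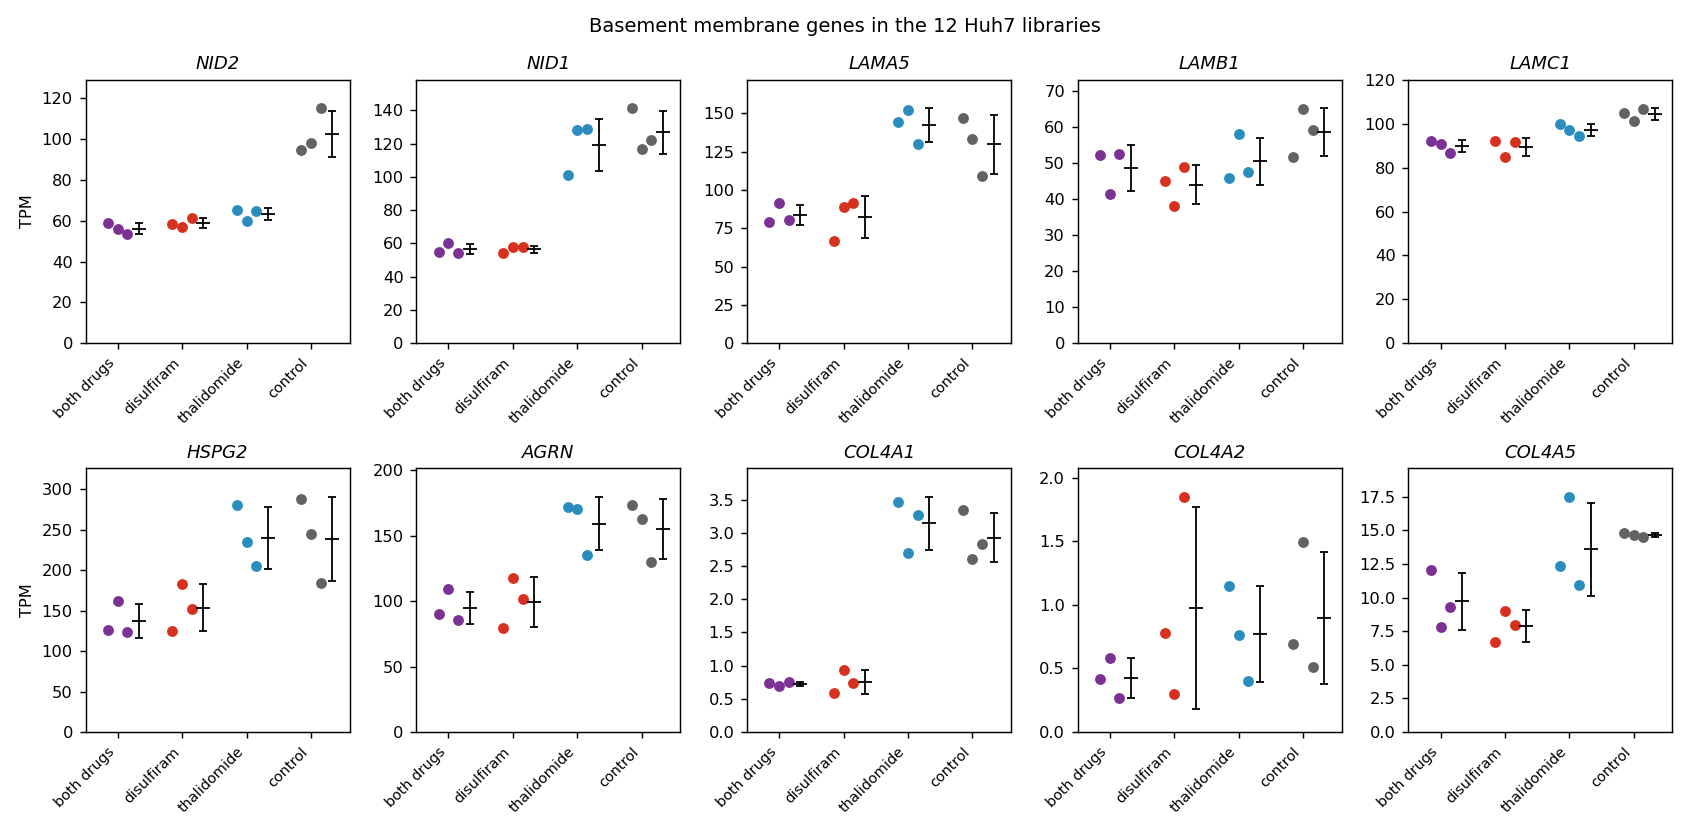
TPM of the 10 members in each library (points), by group, with the mean and SD of 3 libraries beside them (bars). NID2 is low in all 3 treated groups, whereas NID1, LAMA5, HSPG2, AGRN and COL4A1 are low in the combination and disulfiram groups and near control in thalidomide libraries.

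NID2, nidogen-2, was low under each drug, and its low level under thalidomide is what chose it. It was at 58.8, 56.1 and 53.5 TPM in combination libraries and at 58.4, 56.9 and 61.4 TPM in disulfiram libraries. Thalidomide libraries had 65.1, 59.9 and 64.8 TPM, against 94.6, 98.1 and 115.4 TPM in control libraries. Every treated library lay below the lowest control library, while the combination and disulfiram libraries overlapped. The means of NID2 were 56.1 ± 2.69, 58.9 ± 2.28 and 63.3 ± 2.93 TPM in combination, disulfiram and thalidomide cells, against 102.7 ± 11.1 TPM in control cells, that is 54.7%, 57.4% and 61.6% of control. LAMC1 also lay below control in every treated library, at 86.1%, 85.9% and 92.9% of control in the same order. Among the 9 members other than NID2, LAMC1 alone lay below control without overlap in thalidomide cells, where 6.32% of all genes did. NID2 is not counted there, since that comparison chose it.

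The log2 difference of NID2 was -0.86 ± 0.09 in the combination and -0.79 ± 0.09 in disulfiram cells against control, given with no test. In thalidomide against control it was -0.69 ± 0.09, the value that chose the gene, where 0 of 15352 genes (0%) passed the adjusted threshold in limma and 873 had an unadjusted p below 0.05. Between combination and disulfiram cells NID2 differed by -0.07 ± 0.09 (limma, 95% interval -0.26 to 0.12, adjusted p = 0.689). With these groups fitted alone it was -0.07 ± 0.08 (limma, adjusted p = 0.684). Combination libraries lay below thalidomide libraries without overlap, and the difference was -0.17 ± 0.09, against -0.43 after median-of-ratios scaling and -0.32 after GC correction, also with no test. The departure of the combination from the sum of both single-drug differences was 0.62 ± 0.12 on the log2 scale, given with no test since the thalidomide comparison enters it.

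The gene RTRAF, on the opposite strand, overlaps the end of NID2 by 5889 bases, and without known strand reads from that stretch cannot be told apart. RTRAF was at 92.3, 64.3 and 71.4 TPM in combination, 66.0, 57.5 and 62.1 TPM in disulfiram, 39.4, 51.6 and 63.1 TPM in thalidomide and 53.8, 54.3 and 51.0 TPM in control libraries. It rose in combination against control by 0.50 ± 0.16 (limma, adjusted p = 0.0413), where 18.4% of all genes were higher. The difference in disulfiram was 0.22 ± 0.16 (limma, adjusted p = 0.415), and both are given under the main settings only.

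NID1, nidogen-1, the other mammalian nidogen, fell with disulfiram, and its thalidomide libraries overlapped control. It was at 54.9, 60 and 54.4 TPM in combination and at 54.1, 58.0 and 57.6 TPM in disulfiram libraries. Thalidomide libraries had 101.0, 128.1 and 128.6 TPM, against 141.5, 117.0 and 122.2 TPM in control libraries. The 6 libraries with disulfiram were thus all below the 6 without it. NID1 changed by -1.15 ± 0.11 both in combination against control (limma, adjusted p = 7.97e-05) and in disulfiram against control (adjusted p = 8.19e-05), and by -1.06 ± 0.11 in combination against thalidomide (adjusted p = 0.000111). In thalidomide against control the difference was -0.09 ± 0.11. The ratio of NID2 to NID1, both per length, was 0.935 to 1.07 in combination, 0.981 to 1.08 in disulfiram, 0.468 to 0.645 in thalidomide and 0.669 to 0.944 in control libraries. Thalidomide libraries had the least NID2 per NID1, with no overlap with the other groups. The values that chose NID2 enter this ratio, so it is a description.

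**Figure D2:**
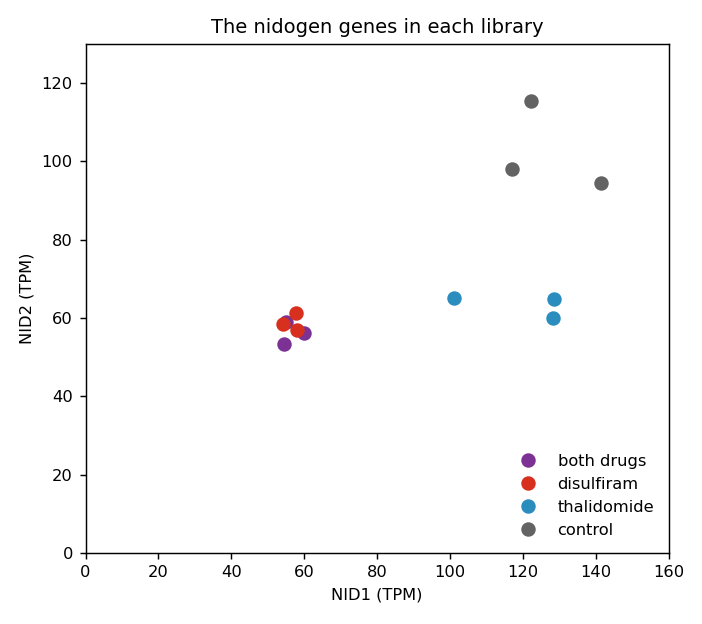
NID1 (horizontal axis) and NID2 (vertical axis) in TPM, with 1 point per library and colours for groups. Libraries with disulfiram lie at 54.1 to 60 TPM of NID1 and 53.5 to 61.4 TPM of NID2, thalidomide libraries share the low NID2 at 101.0 to 128.6 TPM of NID1, and control libraries are high in both.

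Among the laminin chains, the alpha chain LAMA5 fell most. LAMA5 encodes the alpha-5 chain, which pairs with the chains of LAMB1 and LAMC1 in the main laminin of adult epithelial basement membranes. It was at 78.9, 91.4 and 80.6 TPM in combination and 66.7, 89.1 and 91.6 TPM in disulfiram libraries, with 144.5, 152.1 and 130.0 TPM in thalidomide and 147.0, 133.5 and 108.8 TPM in control libraries. No library with disulfiram reached the lowest library without it. The log2 difference was -0.62 ± 0.14 in combination (limma, adjusted p = 0.00963) and -0.65 ± 0.14 in disulfiram cells (adjusted p = 0.00948) against control. Combination minus thalidomide was -0.76 ± 0.14 (adjusted p = 0.00302), and thalidomide minus control was 0.14 ± 0.14. ADRM1, on the opposite strand, overlaps LAMA5 by 908 bases and did not pass in either comparison with control (adjusted p = 0.793 in combination and 0.367 in disulfiram cells).

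LAMC1 encodes gamma-1, the chain that nidogens bind. It was at 92.0, 90.7 and 86.8 TPM in combination and 92.1, 84.9 and 91.9 TPM in disulfiram libraries, with 99.7, 97.1 and 94.2 TPM in thalidomide and 104.8, 101.4 and 106.9 TPM in control libraries. The groups did not overlap with control, and the change was small, -0.21 ± 0.07 in combination (limma, adjusted p = 0.0352) and -0.22 ± 0.07 in disulfiram cells (adjusted p = 0.0481). In disulfiram cells it missed the threshold without any single library except the second of the combination, at adjusted p = 0.0544 (without thalidomide 2) to 0.143 (without control 3). In combination cells the call was lost without combination 1 (adjusted p = 0.0743) or 3 (0.13) and without control 1 (0.0866), 2 (0.0602) or 3 (0.105). Between combination and thalidomide LAMC1 differed by -0.11 ± 0.07 (adjusted p = 0.211), a difference that passed after median-of-ratios scaling (-0.37, adjusted p = 0.0109) and GC correction (-0.33, adjusted p = 0.00537).

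LAMB1, the beta-1 chain, did not pass. It was at 52.2, 41.4 and 52.5 TPM in combination, 45.1, 38.2 and 48.9 TPM in disulfiram, 45.9, 58.0 and 47.7 TPM in thalidomide and 51.8, 65.1 and 59.2 TPM in control libraries. Disulfiram libraries were below control without overlap, and combination libraries overlapped it. The difference was -0.27 ± 0.14 in combination (limma, interval -0.56 to 0.03, adjusted p = 0.151) and -0.41 ± 0.14 in disulfiram cells (interval -0.70 to -0.12, adjusted p = 0.0666). Both passed after median-of-ratios scaling (adjusted p = 0.00978 in combination and 0.0101 in disulfiram cells) and GC correction (0.0264 and 0.0117), and that in disulfiram cells also without combination 2 (0.0467). DLD, on the opposite strand, overlaps LAMB1 by 7932 bases and did not pass either (adjusted p = 0.58 in combination and 0.745 in disulfiram cells). Of the 8 members other than NID2 and COL4A1, all but COL4A2 lay below control without overlap in disulfiram cells, where 11.4% of all genes did. In combination cells all but COL4A2 and LAMB1 did, beside 12.1% of all genes.

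**Figure D3:**
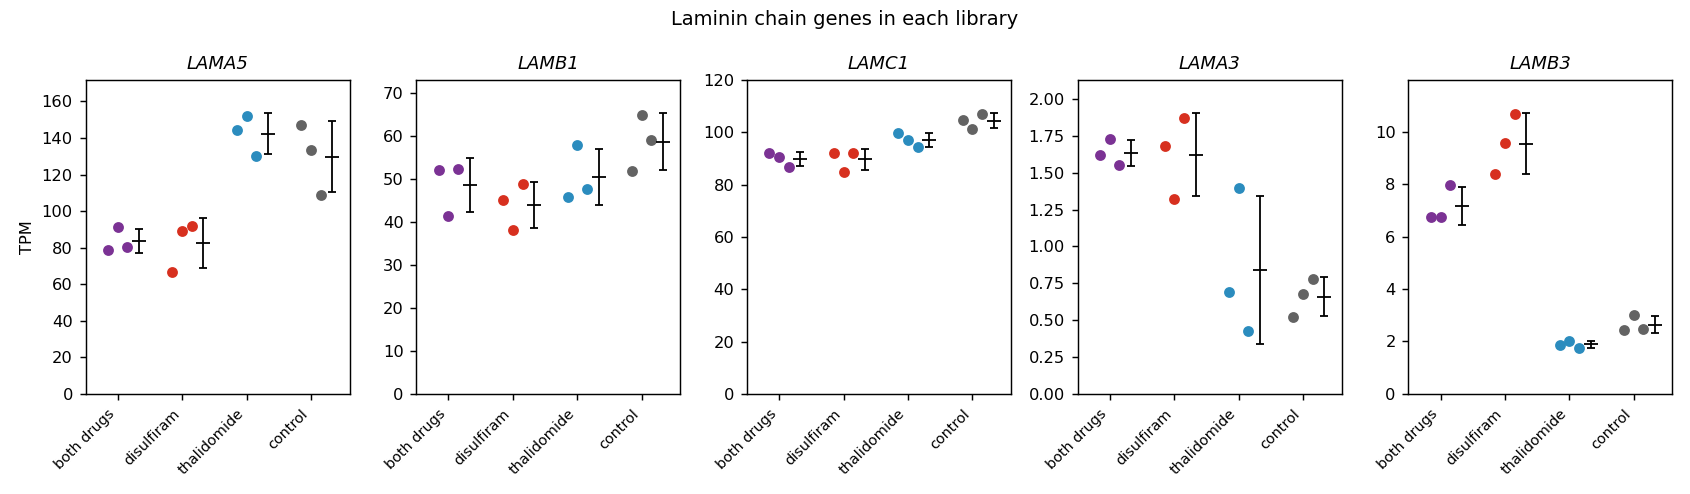
TPM of 5 laminin chain genes per library (points), with mean and SD of 3 libraries. LAMA5, LAMB1 and LAMC1 are lower or similar with disulfiram, and LAMA3 and LAMB3, on the right, are higher in combination and disulfiram libraries than in control.

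Of 8 further laminin genes 4 were tested, and 1 of them, LAMB3, a beta chain found in epithelial laminin, rose with disulfiram at levels that reached the 1 TPM minimum in every group. Among all genes tested, 18.4% were higher in the combination and 8.73% in disulfiram cells. LAMB3 was at 6.74, 6.76 and 7.98 TPM in combination and 8.37, 9.56 and 10.7 TPM in disulfiram libraries, with 1.88, 2.01 and 1.77 TPM in thalidomide and 2.43, 3.01 and 2.49 TPM in control libraries. Libraries with disulfiram lay above all others. It rose by 1.16 ± 0.13 in combination (limma, adjusted p = 0.000291) and by 1.53 ± 0.13 in disulfiram cells (adjusted p = 5.12e-05). LAMA3, an alpha chain of epithelial laminin, was at 1.62, 1.73 and 1.55 TPM in combination and 1.68, 1.32 and 1.87 TPM in disulfiram libraries, with 0.69, 1.40 and 0.43 TPM in thalidomide and 0.52, 0.68 and 0.78 TPM in control libraries. Control libraries were all under the minimum of 1 TPM, so the gene was tested through treated libraries, and its differences of 0.67 ± 0.19 in combination and 0.66 ± 0.19 in disulfiram cells are given with no test. The remaining 2 did not pass. LAMB2, the most abundant of the 4, averaged 81.6 ± 11.8 TPM in combination and 89.0 ± 16.8 TPM in disulfiram cells, against 87.3 ± 10.2 TPM in control cells (-0.10 ± 0.15, limma, adjusted p = 0.629, and 0.02 ± 0.15, adjusted p = 0.962). LAMA4, an alpha chain of vessel and muscle laminin, differed by -0.28 ± 0.23 (adjusted p = 0.37) and 0.25 ± 0.23 (adjusted p = 0.521).

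Both heparan sulfate proteoglycans fell with disulfiram. HSPG2, encoding perlecan, was at 126.6, 161.3 and 123.1 TPM in combination and 125.3, 183.4 and 152.4 TPM in disulfiram libraries, with 280.6, 234.8 and 204.8 TPM in thalidomide and 287.9, 244.5 and 184.2 TPM in control libraries. It had the highest level of the 10 members in every library, and the highest disulfiram library, the second, fell just short of the lowest control library. The change was -0.79 ± 0.18 in combination (limma, adjusted p = 0.0126) and -0.63 ± 0.18 in disulfiram cells (adjusted p = 0.044). The call in combination cells was lost without combination 3 (adjusted p = 0.0548) or control 1 (0.0517). In disulfiram cells it was lost without combination 1 (0.0539) or 3 (0.055), disulfiram 1 (0.151) or 3 (0.106), thalidomide 2 (0.0555), or control 1 (0.159) or 2 (0.11), with no filter on low genes (0.113) and with the 2 groups fitted alone (0.0787).

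AGRN, encoding agrin, was at 90.1, 109.1 and 85.9 TPM in combination and 79.3, 117.5 and 101.3 TPM in disulfiram libraries, with 171.8, 170.8 and 135.7 TPM in thalidomide and 173.4, 162.9 and 129.9 TPM in control libraries. Its groups with and without disulfiram did not overlap. It changed by -0.70 ± 0.16 in combination (limma, adjusted p = 0.0109) and by -0.65 ± 0.16 in disulfiram cells (adjusted p = 0.0199). Without combination 3 the adjusted p in combination cells was 0.0504, and in disulfiram cells it was 0.073 without disulfiram 1, 0.0525 without disulfiram 3, 0.0808 without control 1, 0.0636 without control 2 and 0.0579 with no filter. Combination minus thalidomide was -0.80 ± 0.18 in HSPG2 (adjusted p = 0.00937) and -0.74 ± 0.16 in AGRN (adjusted p = 0.00709). Thalidomide minus control was 0.02 ± 0.18 in HSPG2 and 0.04 ± 0.16 in AGRN. The ratio of HSPG2 to AGRN was 1.41 to 1.48 in combination and 1.5 to 1.58 in disulfiram libraries, against 1.38 to 1.63 in thalidomide and 1.42 to 1.66 in control libraries. The combination and disulfiram ranges did not overlap each other, and each overlapped those of thalidomide and control.

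The type IV collagen chains were the lowest members. COL4A1, which with COL4A2 makes the common form of the collagen, was at 0.74, 0.69 and 0.75 TPM in combination and 0.58, 0.94 and 0.74 TPM in disulfiram libraries, with 3.47, 2.70 and 3.27 TPM in thalidomide and 3.34, 2.61 and 2.84 TPM in control libraries. All 6 libraries with disulfiram were under 1 TPM, and the gene passed the minimum through the 6 libraries without it. For that reason its differences, -1.18 ± 0.15 in combination and -1.17 ± 0.15 in disulfiram cells against control and -1.26 ± 0.15 in combination against thalidomide, are given with no test. On this scale the pseudocount makes the difference smaller than the ratio of means, which was 24.8% and 25.7% of control in combination and disulfiram cells.

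COL4A2 reached 1 TPM in 3 libraries, 1 each of the disulfiram, thalidomide and control groups. Its values were 0.42, 0.58 and 0.27 TPM in combination, 0.78, 0.30 and 1.85 TPM in disulfiram, 1.15, 0.76 and 0.40 TPM in thalidomide and 0.69, 1.49 and 0.51 TPM in control libraries. The groups overlapped, and no comparison passed (limma, adjusted p = 0.323 in combination and 0.978 in disulfiram cells), with intervals of -1.02 to 0.25 and -0.61 to 0.65. COL4A1 and COL4A2 share 1422 bases around their starts, so reads there are uncertain.

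COL4A5, a chain of a rarer form of the collagen, was at 12.0, 7.84 and 9.30 TPM in combination and 6.68, 9.03 and 7.98 TPM in disulfiram libraries, with 12.3, 17.5 and 10.9 TPM in thalidomide and 14.8, 14.7 and 14.5 TPM in control libraries. Libraries with disulfiram were below every control library, while the combination overlapped thalidomide. It changed by -0.83 ± 0.18 in disulfiram cells (limma, adjusted p = 0.0114) and by -0.57 ± 0.18 in combination cells (adjusted p = 0.0397). The call in combination cells was lost without combination 2 (0.0942) or 3 (0.112), disulfiram 3 (0.0522) or control 1 (0.0953), 2 (0.0821) or 3 (0.0889), and with no filter (0.088). Combination minus thalidomide was -0.44 ± 0.18 (adjusted p = 0.0808) and passed after median-of-ratios scaling (0.016), after GC correction (0.0141) and without thalidomide 3 (0.0459).

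**Figure D4:**
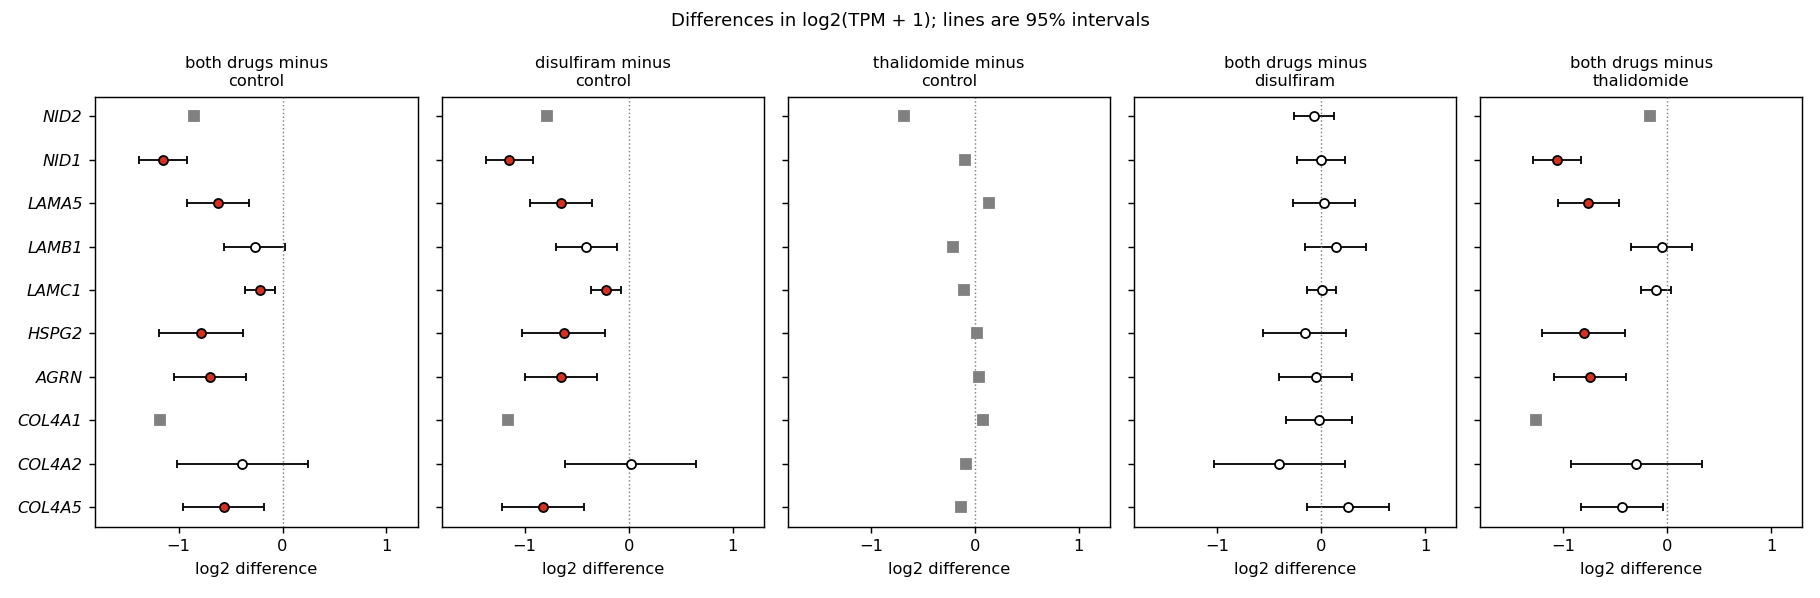
Log2 differences of the 10 members in 5 comparisons, with 95% intervals as lines; filled circles passed at an adjusted p below 0.05, open circles did not, and grey squares are values given with no test. NID1, LAMA5, HSPG2 and AGRN are filled in combination minus control, disulfiram minus control and combination minus thalidomide, and every interval in combination minus disulfiram spans 0.

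A further 115 genes in 7 lists of basement membrane partners were counted, of which 84 were tested. In combination against control 18 rose (21.4%) and 16 fell (19%), beside 18.4% of all genes higher and 6.7% lower. In disulfiram against control 12 rose (14.3%) and 9 fell (10.7%), beside 8.73% and 4.52%. These splits moved with scaling: after median-of-ratios scaling 8 rose and 23 fell in the combination and 8 rose and 10 fell in disulfiram cells, and after GC correction 9 rose and 20 fell, and 12 rose and 17 fell. Without the second combination and second disulfiram libraries the counts were 22 and 18 in combination and 12 and 12 in disulfiram cells. Of the genes that rose, LAMA3 and MMP7 were under 1 TPM in every control library and entered the test through libraries of other groups. In thalidomide against control and in combination against disulfiram 0 of the 84 passed in limma. The lists were written with earlier results of these data known, so their counts describe these libraries and are not independent evidence.

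Of 5 tested collagens of the basement membrane beside the members, 0 rose and 1 fell in the combination, and 0 rose and 2 fell in disulfiram cells. Of all genes tested, 18.4% rose and 6.7% fell in the combination, and 8.73% and 4.52% in disulfiram cells. COL18A1, the source of endostatin, fell in both comparisons. It averaged 35.6 ± 4.69 TPM in combination and 34.8 ± 7.26 TPM in disulfiram cells, against 79.3 ± 11.7 TPM in control cells, a change of -1.13 ± 0.16 (limma, adjusted p = 0.0013) and -1.18 ± 0.16 (adjusted p = 0.000896). COL4A6, the neighbour and partner chain of COL4A5, fell in disulfiram cells (-0.49 ± 0.14, adjusted p = 0.0445) and did not pass in combination cells (-0.35 ± 0.14, adjusted p = 0.0861). Its call was lost without combination 1 or 3, disulfiram 1 or 3, thalidomide 3, or any control library, at adjusted p = 0.055 to 0.137, and in combination cells it passed after median-of-ratios scaling (0.0241) and GC correction (0.0395).

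Among 11 tested minor matrix genes, 3 rose and 5 fell in the combination and 1 rose and 2 fell in disulfiram cells. Over all genes tested, 18.4% rose and 6.7% fell in the combination, and 8.73% and 4.52% in disulfiram cells. Under either scaling the 11 gave 2 and 5 in the combination, and in disulfiram cells 1 and 3 after median-of-ratios scaling and 1 and 5 after GC correction. Lower calls over all genes also grew under both scalings, as given above. NTN4, a netrin that binds the laminin gamma-1 chain, rose by 1.04 ± 0.19 in combination (limma, adjusted p = 0.00438) and 0.69 ± 0.19 in disulfiram cells (adjusted p = 0.033). TGFBI, an adhesion protein of the matrix, averaged 223.5 ± 15.7 TPM in combination and 231.3 ± 36.2 TPM in disulfiram cells, against 370.5 ± 74.0 TPM in control cells, and fell by 0.71 and 0.67 on the log2 scale (adjusted p = 0.00987 and 0.0163). NPNT, an integrin ligand, rose in combination cells by 1.27 ± 0.32 (adjusted p = 0.0161), and SMOC1 fell there by 0.65 (adjusted p = 0.0355). In disulfiram cells NPNT differed by 0.59 ± 0.32 (adjusted p = 0.255) and SMOC1 by -0.53 ± 0.20 (adjusted p = 0.102). Single libraries decided several of these calls. The disulfiram calls were lost without disulfiram 1, disulfiram 3 or control 1 for both NTN4 (0.106, 0.0887 and 0.11) and TGFBI (0.0627, 0.0613 and 0.0656), and for NTN4 also without control 3 (0.116). In combination cells NPNT was lost without combination 3 (0.0586) or control 3 (0.0608), and SMOC1 without combination 1 (0.121) or 3 (0.111) or control 1 (0.122) or 3 (0.0759).

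Of 14 tested receptors of laminin and type IV collagen, 1 rose and 2 fell in the combination, and 0 rose and 1 fell in disulfiram cells. Beside these, 18.4% of all genes tested rose and 6.7% fell in the combination, and 8.73% and 4.52% in disulfiram cells. SDC1, the cell-surface proteoglycan syndecan-1, fell in both comparisons. It averaged 26.8 ± 3.31 TPM in combination and 29.8 ± 4.92 TPM in disulfiram cells, against 49.8 ± 2.97 TPM in control cells, a change of -0.88 ± 0.12 (limma, adjusted p = 0.00122) and -0.73 ± 0.12 (adjusted p = 0.00278). DAG1, the dystroglycan that binds laminins, perlecan and agrin, fell in combination cells by 0.43 (adjusted p = 0.0126), a call lost without combination 1 (0.0538) or 3 (0.0579). ITGA2, a collagen-binding integrin chain, rose there by 0.85 ± 0.25 (adjusted p = 0.0295), a call lost after median-of-ratios scaling (0.0555) and GC correction (0.075) and without combination 1 (0.111) or 3 (0.113) or control 1 (0.104), 2 (0.0503) or 3 (0.0515).

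Of 18 tested genes for folding, modifying and exporting collagen, 2 rose and 7 fell in the combination and 1 rose and 3 fell in disulfiram cells. Over all genes tested, 18.4% rose and 6.7% fell in the combination, and 8.73% and 4.52% in disulfiram cells. In the combination the split of the 18 was 1 and 11 after median-of-ratios scaling and 0 and 9 after GC correction, and in disulfiram cells 0 and 3, and 1 and 6. Over all 15352 genes the calls were then 1193 higher and 2142 lower, and 1513 and 1888, in the combination. In disulfiram cells they were 686 and 1049, and 1390 and 1622. P4HB, the shared beta subunit of prolyl 4-hydroxylase and a protein disulfide isomerase, averaged 529.6 ± 24.7 TPM in combination and 604.9 ± 78.5 TPM in disulfiram cells, against 798.4 ± 37.4 TPM in control cells (-0.59 ± 0.09, limma, adjusted p = 0.00152, and -0.41 ± 0.09, adjusted p = 0.00994). PPIB, a prolyl isomerase of the collagen-modifying complex, changed by -0.61 ± 0.09 (adjusted p = 0.00148) and -0.60 ± 0.09 (adjusted p = 0.00154), and P3H3, a prolyl 3-hydroxylase family member, by -0.70 ± 0.14 (adjusted p = 0.00577) and -0.62 ± 0.14 (adjusted p = 0.0118). PLOD2, a lysyl hydroxylase, rose in combination cells by 1.07 ± 0.30 (adjusted p = 0.0254). That call was lost after GC correction (0.49, adjusted p = 0.0844) and without combination 1 (0.105) or 3 (0.0841) or control 3 (0.0927).

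Of 15 tested genes that build heparan sulfate chains, 0 passed in disulfiram cells, and in combination cells HS6ST2, a sulfotransferase, rose by 1.00 ± 0.25 (limma, adjusted p = 0.0162), a call lost without combination 1 (0.0702) or 3 (0.0531) or control 1 (0.0616). Of 17 tested matrix proteases and inhibitors, 9 rose and 1 fell in combination and 8 rose and 1 fell in disulfiram cells. Both counts of rises include MMP7, which is given below with no test. Over all genes tested, 18.4% were higher and 6.7% lower in the combination, and 8.73% and 4.52% in disulfiram cells. TIMP1, an inhibitor of matrix metalloproteinases, averaged 58.9 ± 6.73 TPM in combination and 65.2 ± 7.18 TPM in disulfiram cells, against 28.5 ± 8.41 TPM in control cells (1.06 ± 0.20, adjusted p = 0.00469, and 1.21 ± 0.20, adjusted p = 0.00261). CTSS, the lysosomal protease cathepsin S, rose by 1.18 ± 0.25 (adjusted p = 0.0086) and 1.02 ± 0.25 (adjusted p = 0.0211). MMP7, the metalloproteinase matrilysin, was at 1.38, 0.61 and 1.63 TPM in combination and 0.57, 1.11 and 1.21 TPM in disulfiram libraries, with at most 0.05 TPM in thalidomide and 0.11, 0.06 and 0.06 TPM in control libraries. No library without disulfiram reached 1 TPM, so its differences of 1.01 ± 0.21 and 0.85 ± 0.21 (2.80 and 2.54 with a pseudocount of 0.1) are given with no test. TIMP4 rose in disulfiram cells by 0.79 ± 0.15 (adjusted p = 0.00636), and its rise in combination cells (0.45 ± 0.15, adjusted p = 0.0486) was lost in 17 of 20 alternative settings. In disulfiram cells the call of CTSS was lost without disulfiram 1 (0.0761) or 3 (0.0599) or control 2 (0.0673) or 3 (0.078). After median-of-ratios scaling 3 proteases and inhibitors rose and 1 fell in the combination and 6 rose and 1 fell in disulfiram cells, and after GC correction 5 and 1, and 8 and 1. MMP7 is in each of these counts of rises except that of the combination after GC correction.

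**Figure D5:**
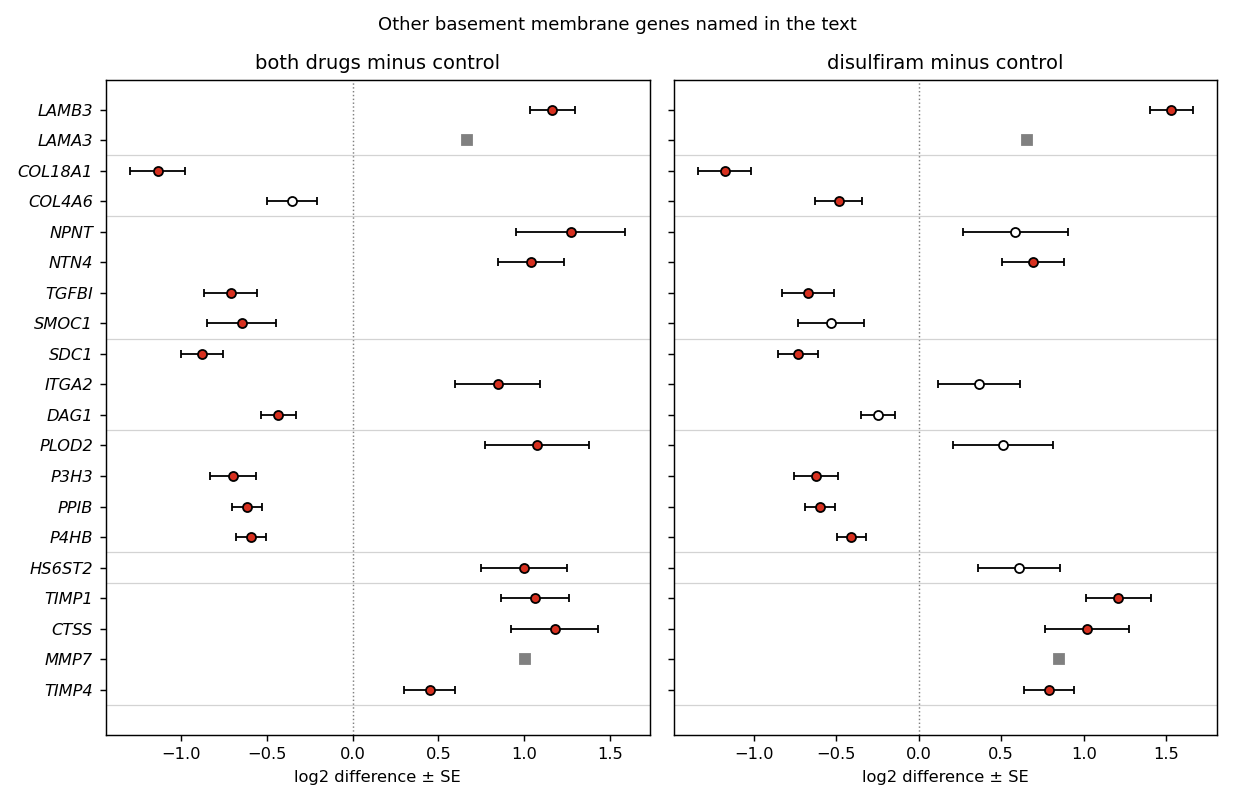
Log2 differences ± SE from control of the named genes of the 7 lists, for the combination (left) and disulfiram (right); filled circles passed at an adjusted p below 0.05, open circles did not, and grey squares are values given with no test. LAMB3 and TIMP1 are above 0 in both panels, and COL18A1, SDC1, P3H3, PPIB and P4HB are below 0 in both.

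The 5 genes whose levels were most like those of NID2, by Pearson's r of log2(TPM + 1) over the 12 libraries among 9017 protein-coding genes with a mean of at least 5 TPM, were SH2B3 (0.94), GSR (0.92), EIF3CL (0.92), TOP1MT (0.91) and TRIM65 (0.90). All 5 had their highest level in control cells, which follows from picking them for likeness to NID2, itself highest there. SH2B3, an adaptor of cytokine receptor signalling, was at 6.38 to 6.59 TPM in combination, 6.58 to 7.03 TPM in disulfiram and 6.72 to 7.24 TPM in thalidomide libraries, against 8.07 to 9.10 TPM in control libraries. GSR, glutathione reductase, averaged 118.6, 127.1 and 135.1 TPM in combination, disulfiram and thalidomide cells, against 156.4 TPM in control cells. EIF3CL is a near-identical copy of EIF3C, so its value is uncertain. These r describe the differences between groups, since the 12 libraries share 4 group means, and within groups r was 0.18, 0.51, 0.61, 0.31 and 0.04 in the same order. Of the members, LAMC1 was next to NID2 in likeness (r = 0.88, rank 11), NID1 had r = 0.70 (rank 301), and LAMA5 had r = 0.49 (rank 1230).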

How the data were processed

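RNA was measured in 12 libraries of Huh7 cells, 4 groups of 3, grouped by the labels' titles. The deposited values are TPM per gene, computed by the authors; per the submitters' processing notes the tools were HISAT2 2.0 and StringTie 1.3.0 and the build hg38. Annotation, filters and depth were not given in the sources used here, so there is no counting interval, and a change in a few abundant transcripts moves the TPM of all others. Of 59191 features 58884 carry an Ensembl identifier, and GENCODE 29 names 58611 of them. Values were taken as log2(TPM + 1) for the 15352 genes with at least 1 TPM in at least 3 of 12 libraries. limma 3.58.1 (R 4.3.3) with a mean-variance trend was fitted to all 12 libraries with no replicate term, with two-sided moderated tests, Benjamini-Hochberg adjustment over all genes tested and a threshold of 0.05. The fit was tested on simulated data with known changes.

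The members, the 7 lists and the markers were chosen with earlier results of these data known. From each list, up to 4 genes past the threshold in combination or disulfiram against control with the largest differences and at least 1 TPM are named. Some genes are not reported here. Alternatives were a pseudocount of 0.1, no filter, a mean TPM of at least 5, median-of-ratios scaling, a loess correction for transcript GC, the compared groups alone, a replicate term, leaving out each library, and leaving out disulfiram 2 and combination 2 together. List genes were put through the same alternatives after the data were seen.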

Additional observations from a re-analysis of the deposited data

How the results depend on the processing

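Over 20 alternatives, the results for single members other than NID2 gave 700 values. Of these, 643 kept their side of the threshold, 47 lost a call, 10 gained one and 0 called values reversed. The values of COL4A1, all of which kept their side, are included, although no test of it is given against control or thalidomide. For the named list genes 689 of 790 values were kept, with 95 lost, 6 gained and 0 reversed. LAMA3 and MMP7, given with no test against control, are in these values. A difference called in neither setting counted as kept even where its sign changed, as for COL4A2 in disulfiram minus control (-0.13 to 0.28). NID1 and LAMA5 stayed past the threshold under all 20 in both comparisons with control, and COL4A5 in disulfiram cells. NID2 in combination minus thalidomide was -0.43 after median-of-ratios scaling and -0.32 after GC correction. Under each of these, 6 of the 8 members other than NID2 and COL4A1 were called there. Counts of members that follow include NID2 and COL4A1, for which no test is given in these comparisons, so the counts describe only how calls moved. Both genes are in every count against control with 1 library left out, and COL4A1 in every one against thalidomide. Leaving out 1 library, the counts ranged from 4 to 8 in combination against control (4 without combination 3, 5 without control 1). The 4 were NID1, LAMA5, NID2 and COL4A1, and the 5 held AGRN as well. In disulfiram against control the counts ranged from 5 to 9. They were 5 without disulfiram 1 or 3 or control 1 or 2, each time NID1, LAMA5, COL4A5, NID2 and COL4A1. In combination against thalidomide the counts ranged from 5 to 6. Genes called then ranged from 1429 to 5092 in combination and 1170 to 2200 in disulfiram against control, 2171 to 5842 in combination against thalidomide, 0 to 36 in combination against disulfiram and 0 to 25 in thalidomide against control. Without disulfiram 2 and combination 2 together, 5846 genes were called in combination and 1 in thalidomide against control. Thalidomide against control gave 1 gene with a mean TPM of at least 5 and 3 with the groups fitted alone. Combination against disulfiram gave 5 with no filter and 0 under the mean TPM minimum of 5, under the groups fitted alone and under the replicate block. The replicate block gave 7 members in each comparison with control and 3584, 1786, 4632 and 0 genes in combination and disulfiram against control, combination against thalidomide and thalidomide against control. Same-numbered libraries correlated at -0.15 to 0.37 in their deviations, over 0.1 in 4 of 15 pairs, and in 11 of 30 checks a library was most like its own number, so the numbers were not taken to pair samples. The highest values were between combination and disulfiram, at 0.21, 0.37 and 0.03 for numbers 1, 2 and 3. In these groups the correlation with GC content also ran alike by number (-0.60, 0.68 and -0.38 in combination, -0.50, 0.62 and -0.31 in disulfiram). Whether these libraries share a batch was not tested. With no filter the list calls of COL4A6, CTSS, NTN4 and TGFBI in disulfiram and of ITGA2, PLOD2 and SMOC1 in combination cells were lost. The replicate block ended the calls of COL4A5 in combination (adjusted p = 0.0553, pairing assumed) and LAMC1 in disulfiram cells (0.0689), and of COL4A6 (0.0519) and NTN4 (0.0528) in disulfiram and TIMP4 (0.0519) in combination cells. The cause of these changes was not tested. The depth being unknown, TPM near 1, as in COL4A1 and COL4A2, cannot be given a counting error.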
